A study of Homo sapiens with 16 samples.

Results

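The poly(A)-binding protein genes PABPC1, PABPC4 and PABPN1 were followed through 8 deposited lists of RNA immunoprecipitation sequencing (RIP-seq) peaks, the genome intervals that the authors' peak caller reported as enriched in reads. All peaks on the strand of a gene that lay within its span in the genome build hg19 were taken. PABPC1 spans chromosome 8 from 101715144 to 101734315 (minus strand, 19172 bp), PABPC4 chromosome 1 from 40026485 to 40042521 (minus strand, 16037 bp), and PABPN1 chromosome 14 from 23790498 to 23795394 (plus strand, 4897 bp). Of 175749 peaks in all lists, 45 lay in these spans. Joined where they overlapped by at least 1 bp on the same strand, they formed 7 of the 36802 regions of the series, with 4 in PABPC1, 1 in PABPC4 and 2 in PABPN1. No peak lay on the opposite strand of any of the 3 spans.

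PABPC1 is the main cytoplasmic poly(A)-binding protein. It coats the poly(A) tail of mRNAs, contacts the translation initiation factor eIF4G and takes part in deadenylation, and it enters stress granules. Its own mRNA carries an A-rich stretch in the 5′ untranslated region, through which the protein is known to hold back its own translation. PABPC4 is a related cytoplasmic protein, first described as inducible in activated T cells. PABPN1 is the nuclear member, which stimulates poly(A) polymerase and sets tail length. Expansion of an alanine tract at its N terminus causes oculopharyngeal muscular dystrophy.

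RNA was immunoprecipitated with an anti-Myc antibody from H1299, an established human lung carcinoma line, that stably expressed Myc-tagged PABPC1, wild type (WT) or K512R, a lysine-to-arginine change. Sodium arsenite (AS, 500 µM), which stresses cells oxidatively and brings about stress granules, was given to some of the cells, and the study by its title concerns SUMO modification of PABPC1. The lists make up 4 replicate pairs, and in 3 of these the condition in the list's name differs from the one in the sample record. Pair A is the IP of WT cells with AS by the record and untreated K512R by the name. Pair B is the input RNA of WT cells with AS by the record and K512R with AS by the name. Pair C is untreated WT by both, and by the record it is the IP. Pair D is the input of untreated WT cells by the record and WT with AS by the name. By the names, the 4 pairs are 4 conditions, WT and K512R, each with and without AS. A and C against B and D then compares untreated cells with those given AS. A and B against C and D then compares K512R with WT. The record was followed for grouping without settling whether the record or the names are right. The lists of A and C are therefore called IP-recorded, those of B and D input-recorded, those of A and B AS-recorded and those of C and D untreated-recorded. The other 8 samples, with K512R in their titles, were not analysed here. Nothing in the labels says whether replicates were separate cultures, whether each line was 1 clone, or what parts of the PABPC1 mRNA the transgene holds. The p-values therefore measure only the spread between these lists, which may be technical. Every cell carried a Myc-PABPC1 transgene beside its own PABPC1 gene, so no list comes from cells without one.

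The lists held 19953 to 25111 peaks each, and their read depth is unknown because they give no counts. The IP-recorded lists covered 8.33 to 9.91 Mb and the input-recorded lists 6.70 to 7.15 Mb. Each peak carries the authors' score, whose unit is not stated, and it served to describe and rank peaks within a list. A score of 3100 was shared by many of the best peaks, so peaks at 3100 have no order among themselves.

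PABPC1, the gene of the immunoprecipitated protein, had more peaks in IP-recorded than in input-recorded lists. It had 4 peaks in both lists of A, 1 peak in both lists of B, 4 and 3 peaks in the lists of C and 1 peak in both lists of D. The peak at the 5′ end was in all 8 lists, and the other 3 regions were found in IP-recorded lists alone. By the record this sets IP lists apart from input lists, and by the list names it sets untreated cells apart from those with AS. PABPC4 had 1 peak in each of the 8 lists, and PABPN1 had 2 or 3.

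**Figure D1:**
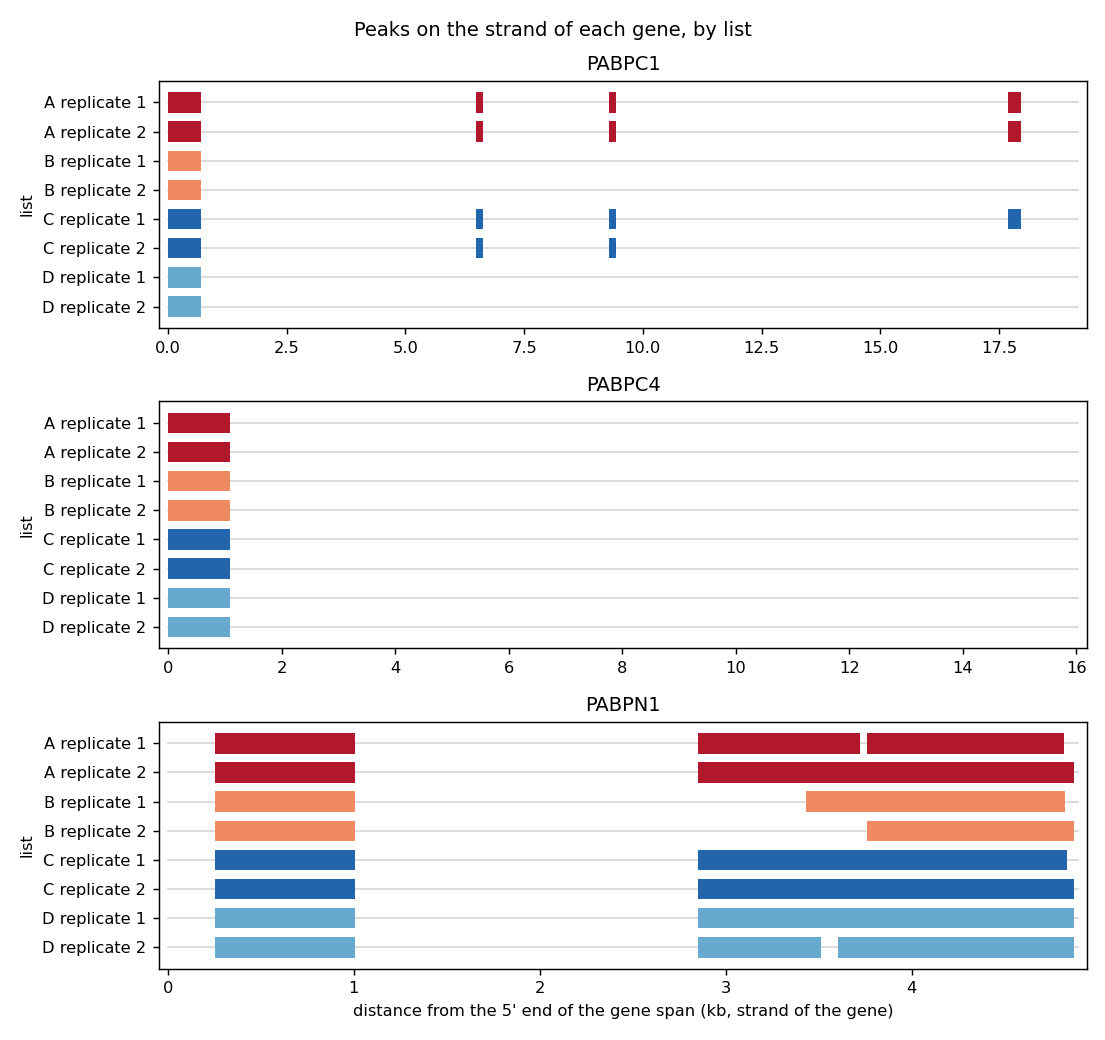
Peaks on the strand of PABPC1, PABPC4 and PABPN1 in each of the 8 lists, with the distance from the 5′ end of the gene span in kb on the horizontal axis and 1 row per list (pairs A to D, 2 replicates each). Each bar is a peak. PABPC1 has 3 or 4 peaks in IP-recorded lists (A, C) and 1 in input-recorded lists, PABPC4 has 1 identical peak throughout, and the 3′ peak of PABPN1 starts later in both lists of B.

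PABPC1 region 1, counted from the 5′ end, lay at 101733619 to 101734315 (697 bp) and ended exactly at the 5′ end of the span. Its peak had the same ends in all 8 lists. Its score was 3100 in both lists of A, 338.55 and 990.26 in B, 3100 in both lists of C, and 129.8 and 386.3 in D. The score thus lay at the shared value of 3100 in each IP-recorded list, and below it in each input-recorded list. From 8.17% to 11.0% of the peaks of a list scored 3100 or more. How many other regions had scores split in this way was not computed, so the split cannot be called particular to PABPC1. As a rank, the peak stood at percentile 95.7 and 95.5 of its list in A, 63.5 and 77.8 in B, 95.3 and 94.8 in C, and 46.0 and 67.3 in D, counted from the lowest score. Ranks in lists of different length do not measure a change in binding.

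PABPC1 region 2, 6486 bp from the 5′ end at 101727690 to 101727829 (140 bp), was in all 4 IP-recorded lists and in no input-recorded list. Its score was 2551.42 and 3100 in A and 3100 in both lists of C. Region 3, 9298 bp from the 5′ end at 101724880 to 101725017 (138 bp), followed the same pattern. Its score was 491.01 and 1817.91 in A, and 3100 and 2088.33 in C. Within their lists these peaks stood at percentiles 72.7 and 87.4 in A, and 95.3 and 86.5 in C, so the pairs overlapped. Region 4, near the 3′ end at 101716342 to 101716618 (277 bp), was in both lists of A, in replicate 1 of C, and in no list of B or D. Its score was 404.85 and 770.63 in A and 588.85 in the list of C that held it. All its peaks lay in the upper part of their lists, at percentiles from 69.96 to 77.9, and its 3′ edge was 1198 bp short of the end of the span. Within each of the 4 PABPC1 regions, every peak had identical ends. In the series as a whole, 76.0% of the 30472 regions found in 2 or more lists held a single peak with identical ends in every list that had it. For such regions a width shows only whether the interval was listed, so a lack of spread is no measure of precision.

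These presence patterns were read against all regions of the series. In A against B, 3 of the 7 regions, all in PABPC1, were present in 2 of 2 lists of A and absent from B, a pattern held by 16.0% of 33176 regions. None of the 7 showed the reverse, which 6.94% of regions did. In C against D, 2 of the 7, PABPC1 regions 2 and 3, were present in 2 of 2 lists of C and absent from D, against 11.4% of 31216 regions, and none the reverse, against 9.68%. The regions of a gene share a transcript and are not independent. In A against C none of the 7 regions was called in either direction, where 5.88% of 31112 regions were present in A alone and 1.92% in C alone. In B against D none of the 4 regions with a peak was called, where 3.95% of 27622 regions were present in B alone and 5.02% in D alone. An exact test of 2 lists against 2 cannot pass 0.05, so no p-value accompanies these counts.

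Over all 8 lists, PABPC1 regions 2 and 3 were in 4 of 4 IP-recorded and 0 of 4 input-recorded lists, as were 5.09% of the 36802 regions. None of the 7 had the reverse pattern, which 3.01% of regions had. In an exact permutation test of summed peak width (2-sided, n = 4 lists each), each of these regions had p = 0.0286, the smallest possible with 4 lists a side. The permutation p adjusted over all 36802 regions (Benjamini-Hochberg) was 0.308, so neither passed. With 4 lists a side, a region could pass this adjustment only if most regions reached the smallest p. The adjusted test therefore cannot decide about single regions. In that test 0 regions of the series passed after adjustment, and 3417 (9.28%) had an unadjusted p under 0.05. Between AS-recorded and untreated-recorded lists, named K512R and WT, none of the 7 regions was in all lists of one side and absent from the other. In the series 0.0652% of regions were present in all AS-recorded lists alone and 0.0489% in all untreated-recorded lists alone.

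The PABPC1 span was covered by peaks over 1252 bp in both lists of A, 697 bp in both lists of B, 1252 and 975 bp in C, and 697 bp in both lists of D. The IP-recorded lists did not overlap the input-recorded ones. Every PABPC1 region had fixed ends, so covered length restates which regions were present and is not a further result. In the same exact permutation test of summed peak width, 9.28% of the 36802 regions had an unadjusted p under 0.05, in either direction. Only lists that do not overlap can reach such a p here. The IP-recorded lists also covered more bases in general. Covered length averaged 1183 ± 138.5 bp in IP-recorded and 697 ± 0 bp in input-recorded lists (SD, n = 4 each), a ratio of 1.70. The exact 2-sided permutation p was 0.0286, unadjusted and 1 of 6 computed for 3 genes and 2 factors. It treats the 8 lists as independent, and its orders exchange lists between AS-recorded and untreated-recorded ones. When lists were permuted only within a replicate number it was 0.0556, the smallest that such a permutation can give. PABPC1 covered length was 974.5 ± 320 bp in AS-recorded and 905 ± 266 bp in untreated-recorded lists (SD, n = 4 each, exact permutation p = 1).

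**Figure D2:**
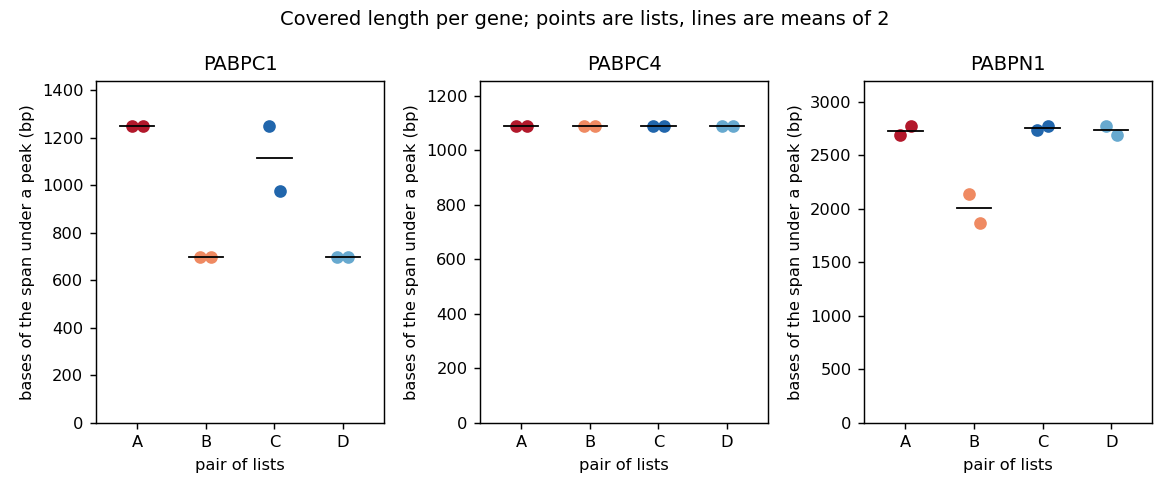
Bases of each gene span under a peak (bp), by pair of lists. Points are the 2 lists of a pair and lines their mean. PABPC1 lies at 975 to 1252 bp in the IP-recorded pairs A and C and at 697 bp in the input-recorded pairs, PABPC4 at 1091 bp in every list, and PABPN1 at 1868 and 2143 bp in B against 2687 to 2779 bp elsewhere.

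Reads from the Myc-PABPC1 transgene could bear on the PABPC1 peaks first of all. A transgene transcript has the sequence of the PABPC1 mRNA over whatever part was cloned, so its reads can align to the exons of the endogenous gene on chromosome 8. They could raise coverage and scores over those exons, make peaks there that the endogenous mRNA alone would not give, and leave introns and any uncloned untranslated part as they were. Transgene RNA would also be in input RNA. RIP with the Myc tag could further recover the transgene's own transcript. A single changed codon does not stop reads from aligning, so WT and K512R transcripts would add to the same peaks. A difference in transgene level between the lines could move the PABPC1 peaks without any change in the endogenous mRNA, and PABPC4 would be touched only where its sequence is near enough for reads to align. The lists hold no read sequences, so transgene and endogenous RNA cannot be told apart in any PABPC1 value given here. PABPC1 regions 2 and 3 were present in every list of A and of C, which are named for K512R and for WT, and absent from every list of B and of D, which are named for K512R with AS and WT with AS. Region 4 was in 2 of 2 lists of A, named for K512R, in 1 of 2 lists of C, named for WT, and in no list of B or D. By the record all 8 lists are WT, and the part of the transgene in these patterns was not tested. RefSeq (GRCh38.p14) also holds 13 pseudogenes with the symbols PABPC1P1 to PABPC1P13, and the sources used here do not say how reads matching several copies were placed.

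The numbers in the peak names followed genome position in every list and had gaps. What the missing numbers stand for is not stated in the sources used here. Between PABPC1 regions 4 and 3, 2 numbers were missing in each of the 3 lists that held both regions. Between regions 2 and 1, 1 number was missing in each of the 4 lists that held both, and between regions 3 and 2 none was. Among 74407 neighbouring listed peaks 1000 to 10000 bp apart, 20.2% had a missing number between them and 4.61% had 2 or more. The PABPC1 stretches were chosen after their values were seen. From PABPC1 region 1 to the next listed peak at lower coordinates, which lay outside the span, 4 and 1 numbers were missing in the lists of B, and 4 and 5 in those of D. That peak ended at 101534999 in both lists of B and in replicate 2 of D, and at 101322342 in replicate 1 of D. The span itself starts at 101715144. The missing numbers could therefore lie far outside PABPC1, on either strand.

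PABPC4, the inducible cytoplasmic relative, had 1 region, at 40041431 to 40042521 (1091 bp), which ended exactly at the 5′ end of the span like PABPC1 region 1. Its ends were identical in all 8 lists, as they were in 8529 of the 10872 regions found in all lists (78.4%). Its score was 2256.3 and 2477.15 in B, and 3100 in all lists of A, C and D. The lists of B were the lower ones, at percentiles 87.4 and 87.2 of their list. How many other regions scored lowest in B was not computed, so this cannot be called particular to PABPC4. The other 14946 bp of the span held no peak in any list, so peaks covered 6.80% of the span in each of the 8 lists. The span includes introns, and its exons were not analysed here. RefSeq (GRCh38.p14) places the antisense gene PABPC4-AS1 and the small nucleolar RNA SNORA55 over parts of PABPC4, and the sources used here do not say how strand was assigned.

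PABPN1, the nuclear protein, was the most fully covered gene of the 3, with peaks over 38.1% to 56.7% of its span. Its region 1, 254 bp from the 5′ end at 23790752 to 23791504 (753 bp), was in all 8 lists with identical ends. Its score was 3100 in both lists of A, 3104.89 and 2319.82 in B, 3100 in both lists of C, and 1893.25 and 1752.86 in D. The lists of D thus had the lowest scores, and the IP-recorded lists the shared value of 3100. The share of other regions with scores split in this way was not computed, so the split cannot be called particular to PABPN1. This region stood at percentile 85.9 or higher of every list.

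**Figure D3:**
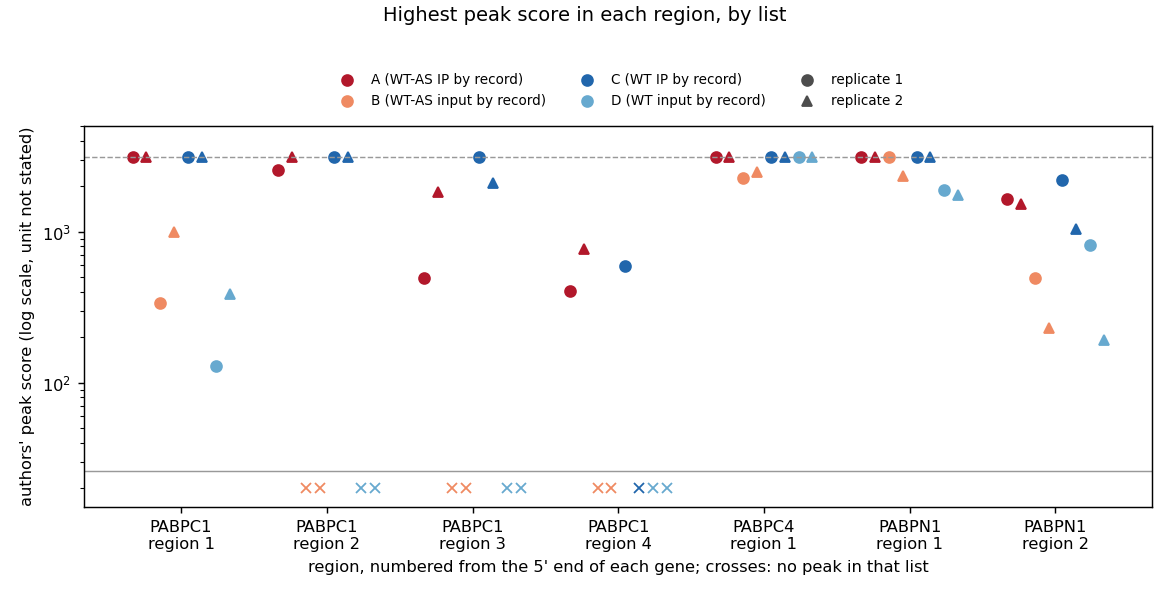
Highest score, as the authors' caller gave it (log scale, unit not stated), in each of the 7 regions and 8 lists. Colours are pairs A to D, circles are replicate 1 and triangles replicate 2. Crosses under the lower line mark lists with no peak in the region, and the dashed line is the shared score of 3100. In PABPC1 region 1 all IP-recorded lists (A, C) sit at 3100 and the input-recorded lists between 129.8 and 990.26. The share of other regions with such a split was not computed.

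PABPN1 region 2 reached from 23793347 to 23795372 (2026 bp), within 22 bp of the 3′ end of the span. It was the only region of the 7 whose ends varied, with 8 different intervals among 10 peaks. Peaks covered 1934 and 2026 bp of it in A, 1390 and 1115 bp in B, 1985 and 2026 bp in C, and 2026 and 1935 bp in D. Both lists of B lay below every other list, and the share of all regions with this pattern was not computed. The first 584 bp of the region, from 23793347 to 23793930, were under a peak in 6 lists and in neither list of B. The stretch of 1059 bp from 23794260 to 23795318 was covered in all 8 lists. Ahead of that stretch, replicate 1 of A and replicate 2 of D had a short gap that split the region into 2 peaks. The highest score in the region was 1656.21 and 1522.89 in A, 496 and 232.02 in B, 2212.64 and 1043.98 in C, and 813.65 and 192.92 in D.

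Summed peak width of this region was higher in both lists of A than in either of B, as it was for 19.2% of regions in A against B. It was lower in both lists of B than in either of D, as it was for 8.38% of regions in B against D. The 2 comparisons share the lists of B. Covered length of the whole gene was 2733 ± 65.1 bp in A, 2005.5 ± 194 bp in B, 2758.5 ± 29.0 bp in C and 2733.5 ± 64.3 bp in D (SD, n = 2 each). The IP minus the input list by the record was 727.5 bp in A against B, compared with 25 bp in C against D, a difference of 702.5 bp that was not tested. By the list names, A against B is untreated K512R against K512R with AS. C against D is then untreated WT against WT with AS. Over 4 lists against 4 the groups overlapped. Covered length averaged 2746 ± 43.7 bp in IP-recorded and 2369.5 ± 437 bp in input-recorded lists (exact 2-sided permutation p = 0.257, SD, n = 4 each). It averaged 2369 ± 436 bp in AS-recorded and 2746 ± 43.2 bp in untreated-recorded lists (p = 0.171, same permutation test, n = 4 each). The PABPN1 differences rested in part on replicate 2 of B, without which they were 209 bp for IP-recorded minus input-recorded lists, against 376 bp with it, and -209.7 bp for AS-recorded minus untreated-recorded lists, against -376.8 bp with it. Expressed per Mb covered by the list, the IP-recorded minus input-recorded difference changed sign to -35.1 bp per Mb (exact permutation p = 0.371, n = 4 each). On that scale the AS-recorded minus untreated-recorded difference was -71.0 bp per Mb (exact permutation p = 0.0286, n = 4 each). Before scaling, A and C overlapped, at 2687 and 2779 bp in A and 2738 and 2779 bp in C. The lists of A covered 9.48 and 9.91 Mb in all, and those of C 8.33 and 8.41 Mb. The scaled difference thus also carries the total length of the lists.

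RefSeq (GRCh38.p14) lists the readthrough gene BCL2L2-PABPN1 over PABPN1, so the PABPN1 peaks could also come from that transcript, and the lists do not separate them. On the same strand within 20000 bp upstream of the span, 1 peak was found in each list of A, C and D and 2 in each list of B, the nearest 13090 bp away. No peak of either strand lay within 20000 bp of PABPC1 or PABPC4, or within 20000 bp downstream of PABPN1. The B lists were thus the shorter ones in the 3′ region of PABPN1 and had 1 more peak upstream. How many regions of the series set B apart from all other lists in either way was not computed. Neither can be called particular to PABPN1.

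The regions elsewhere whose summed peak width over the 8 lists was most like the covered length of PABPC1 were found among 2932 regions with a mean width within a factor of 2. They lay on chromosome 16 at 475668 to 476720 (Pearson r = 0.996), chromosome 3 at 128806457 to 128810189 (r = 0.995) and chromosome 5 at 150036420 to 150038757 (r = 0.995). All 3 had peaks in the 4 IP-recorded lists, their lowest such width in replicate 2 of C, and no peak in an input-recorded list. For PABPN1, 685 regions were compared, and the closest were on chromosome 11 at 125358096 to 125359718 (r = 0.995), chromosome 3 at 43120721 to 43123028 (r = 0.993) and chromosome 19 at 1505017 to 1506315 (r = 0.979). The widths of the region on chromosome 11 were 1106 and 812 bp in B and 1552 to 1623 bp in the other lists. The other regions changed far less. The PABPN1-like region on chromosome 3 had 2305 and 2304 bp in B and 2308 bp in the other lists. The region on chromosome 19 had 1259 and 1239 bp in B and 1290 to 1299 bp in the other lists. A correlation does not reflect the size of such a change. These correlations over 8 lists describe the highest of many, and the points of a gene share their libraries. PABPC4 did not vary, so no such region can be named for it.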

How the data were processed

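The submitters' processing notes name cutadapt 1.9.3, HISAT2 2.0.4 and hg19. Per the peak names in the deposited files, a caller of the MACS family made the lists, and the sources used here do not give its version, control library, threshold or use of strand. The authors deposited 1 list per sample for 8 of 16 samples, giving each peak's position, its strand and a score of unstated unit. Starts were read as BED and are given counted from 1. Read depth is unknown, and the number of lists limits the precision. Ribosomal RNA was removed before library construction, per the labels' protocols.

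The members, spans, tests and alternatives were chosen with earlier results of these data known. The genes described were the 3 members, and the 3 regions most like PABPC1 and the 3 most like PABPN1 in width pattern were named by position. Genes that overlap a member, and PABPC1 pseudogenes, were named from RefSeq without values, after the lists had been seen. Covered length is the bases of a span under a peak. A region was called when present in 2 of 2 lists of a pair and 0 of 2 of the other. Differences over 4 lists against 4 were tested by exact 2-sided permutation (70 orders), and summed widths were tested over all regions with Benjamini-Hochberg adjustment. The code was checked on simulated presence. No hg19 gene annotation or sequence was used here, so exons, untranslated parts and other genes of the pathway were not analysed, and no sequence is shown. Scripts ran in Python 3.11.15 with pandas 2.3.3 and numpy 2.4.6, tests were compared with scipy 1.17.1, and figures used matplotlib 3.10.9.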

Additional observations from a re-analysis of the deposited data

How the results depend on the processing

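Of 155 values under other settings, 136 were classed as the same. For covered length this meant no reversed sign and the same side of the threshold, and a difference that fell to 0 could count. For counts of regions it meant a similar number, such as 3 against 2. For the difference of differences it meant a change within the pooled SD. The alternatives limited lists to 19953 peaks, took scores of at least 100, took peaks wholly inside a span, counted peaks, scaled covered length to the Mb a list covered, joined peaks up to 100 bp apart, required 50% reciprocal overlap, asked for a peak in at least 1 list, or left out lists. Limiting list length or score left the covered length of each gene unchanged in every list. Taking peaks wholly inside a span changed no difference. PABPC4 was constant, so its differences stayed at 0 in every setting but the scaling. The count of 136 therefore does not measure robustness. For PABPC1 in IP-recorded against input-recorded lists, the difference in covered length of 486 bp had an exact permutation p of 0.0556 with the replicate block. Without 1 list it was 463 to 555 bp (exact permutation p = 0.0571, the smallest that 3 lists against 4 can give). Per Mb covered by the list, PABPC4 had a difference of -35.7 bp for the same comparison (exact permutation p = 0.0286), since its length was constant and the IP-recorded lists covered more in all. PABPN1 then turned to -35.1 bp, and in AS-recorded against untreated-recorded lists it stood at -71.0 bp (exact permutation p = 0.0286). Unscaled, the latter comparison had an exact permutation p of 0.171, and the scaled value also carries the total length of the lists. The PABPC1 difference of 69.2 bp between AS-recorded and untreated-recorded lists (exact permutation p = 1) became -0.456 bp per Mb, and without 1 list it ranged from -23.2 to 185 bp. Without replicate 1, 1 region was in A and not in C, where no region was called with both lists, and without replicate 2 the count was 0. With scores of at least 100, the regions with an unadjusted p under 0.05 between AS-recorded and untreated-recorded lists numbered 68, against 142. The alternatives for that count and for the difference of differences were chosen after seeing the data. Same-numbered lists did not deviate together (r from 0.00645 to 0.0203 over 36802 regions), so the numbers were not taken as pairs.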
